A study of Homo sapiens with 8 samples.

Results

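The comparison described here is that of K562 cells carrying the guide sg1-IRF2 with K562 cells carrying the control guide sgAAVS1, 4 of the 8 RNA libraries of the series. K562 is an established chronic myeloid leukaemia line with erythroid features. All cells, controls included, carried dCas9-KRAB, a Cas9 without nuclease activity joined to a repressor domain, which silences a gene when a guide brings it to the promoter (CRISPR interference). The 4 groups, each of 2 libraries, were sgAAVS1 (a guide to the AAVS1 site, the negative control), sg1-IRF2, sg2-IRF2 (a second guide to IRF2) and cells without a guide (untransduced). RNA of the 3 groups with a guide was taken 7 days after transduction. The labels do not say whether the cells are 1 clone, nor whether paired libraries are separate cultures, so the p-values cover the spread between libraries and no more. Genes were tested where the mean log2 value over the 8 libraries was 0 or more, which kept 14665 of 35805, and the medians of the libraries over these genes were aligned. The untransduced libraries show for each gene which of the compared groups lies away from cells without a guide. They cannot by themselves assign a difference to 1 guide, since both groups also differ from them by transduction. The sg2-IRF2 libraries show whether a difference was also seen with the other guide.

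IRF2 is a transcription factor of the interferon regulatory factor family. It binds the interferon-stimulated response element, a pair of GAAA units with a short spacer, which IRF1 also binds. It is known as a repressor of interferon-induced genes and also as an activator of a smaller set, among them genes of the MHC class I pathway. That pathway cuts proteins in the proteasome, carries the peptides into the endoplasmic reticulum through TAP, trims them with ERAP proteases and loads them on HLA molecules for display to T cells.

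Recovered reads over the listed genes ranged from 5248359 to 6738348 per library. K562 markers were present in all 8 libraries, with 673 to 763 reads of GATA1 and 2183 to 2607 of TFRC. MS4A1 had 0 reads and CD3E and CD14 at most 4, while PTPRC (416 to 588 reads) and EPCAM (402 to 498) had reads in every library. Reads of the very abundant, short HBG1 stayed between 451 and 482 whatever the library total, the cause of which was not tested. The replicates of sg1-IRF2, sg2-IRF2 and untransduced cells differed by less than counting noise (mean chi-square per gene 0.780, 0.659 and 0.820), and those of sgAAVS1 by more (1.66). Each sgAAVS1 library was nearer to the sg1-IRF2 library with the same replicate number (1.11 and 1.22) than to the other sgAAVS1 library. The untransduced libraries were nearer to sg2-IRF2 (1.12 to 1.31) than to sgAAVS1 (1.93 to 2.12) or sg1-IRF2 (1.91 to 1.97). No label names a batch, and the part of these distances in the results was not tested.

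IRF2 itself was nearly lost with sg1-IRF2. The gene (chromosome 4, 184387713 to 184474580 on the minus strand, hg38) had 271 and 268 reads in the untransduced libraries, 196 and 291 in the sgAAVS1 libraries, 4 and 8 in the sg1-IRF2 libraries and 22 and 21 in the sg2-IRF2 libraries. The sg1-IRF2 libraries were below all others, and the sg2-IRF2 libraries lay between them and the controls. The log2 difference between sg1-IRF2 and sgAAVS1 was -5.43 ± 0.21 (standard error of the limma fit, as for all differences below; Benjamini-Hochberg adjusted p = 1.43e-12), and the reads, scaled to library totals, were 41.1-fold fewer (95% interval 23.3 to 80.1, counting error only). The sg1-IRF2 libraries were lower than the sg2-IRF2 libraries by a log2 difference of -1.88 ± 0.21 (adjusted p = 0.000104). None of the 15 tested genes around IRF2 on 4q35 was called in either direction, with a median difference of 0.05.

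With sg1-IRF2, 82 genes were lower than with sgAAVS1 (0.559% of the genes tested) and 34 were higher (0.232%) at an adjusted p under 0.05 in limma's moderated test. Genes called lower were shifted by a median log2 difference of -0.99 and genes called higher by 0.57, while the median of all tested genes was 0.0032. At least 2-fold lower were 40 genes (0.273%) and at least 2-fold higher 8 (0.0546%). In all 116 called genes the sg1-IRF2 libraries did not overlap the sgAAVS1 libraries, which was also so in 30.4% of all genes tested. Of the called genes 13 lie opposite another tested gene and 5 share exons with another on the same strand, where reads may be split or shared. Without aligning the medians 73 genes were called lower and 48 higher. The total of 116 moved by over 1.5 times without sgAAVS1 replicate 1 (118 lower, 60 higher) or replicate 2 (89 lower, 122 higher). It did so too without the filter on low values (314 called), without the mean-variance trend (49 called), in a fit of only the 2 compared groups with a replicate block (155 lower, 93 higher), and when pairs below counting noise were counted as 1 library (73 called).

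**Figure D1:**
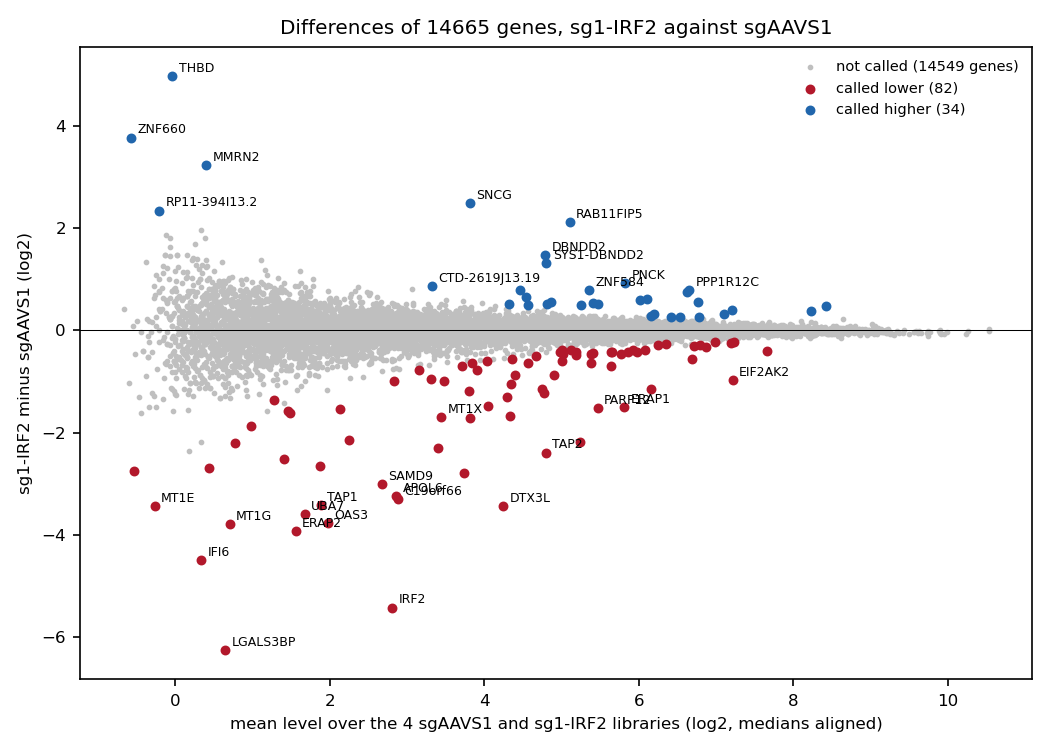
Log2 difference between sg1-IRF2 and sgAAVS1 (y axis) against the mean log2 level of the 4 libraries (x axis), 1 point a gene. The 82 genes called lower (red) reach -6.27 and the 34 called higher (blue) reach 4.99, and most of the other 14549 genes (grey) lie near 0.

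The largest falls were in interferon-responsive genes and in metallothioneins. LGALS3BP, a secreted glycoprotein that binds galectins, had 50 and 48 reads in the untransduced libraries, 61 and 84 in the sgAAVS1 libraries, 0 and 1 in the sg1-IRF2 libraries and 2 and 6 in the sg2-IRF2 libraries. The fitted log2 difference was -6.27, and scaled reads were 147-fold fewer with a counting interval of 25.9 to 5842, so the size is poorly fixed. IFI6, an interferon-induced mitochondrial protein that slows apoptosis, had 25 and 39 reads with sgAAVS1 and 2 and 1 with sg1-IRF2 (21.6-fold fewer, interval 7.07 to 108). In both genes all 4 control libraries lay above all 4 libraries with a guide to IRF2.

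**Figure D2:**
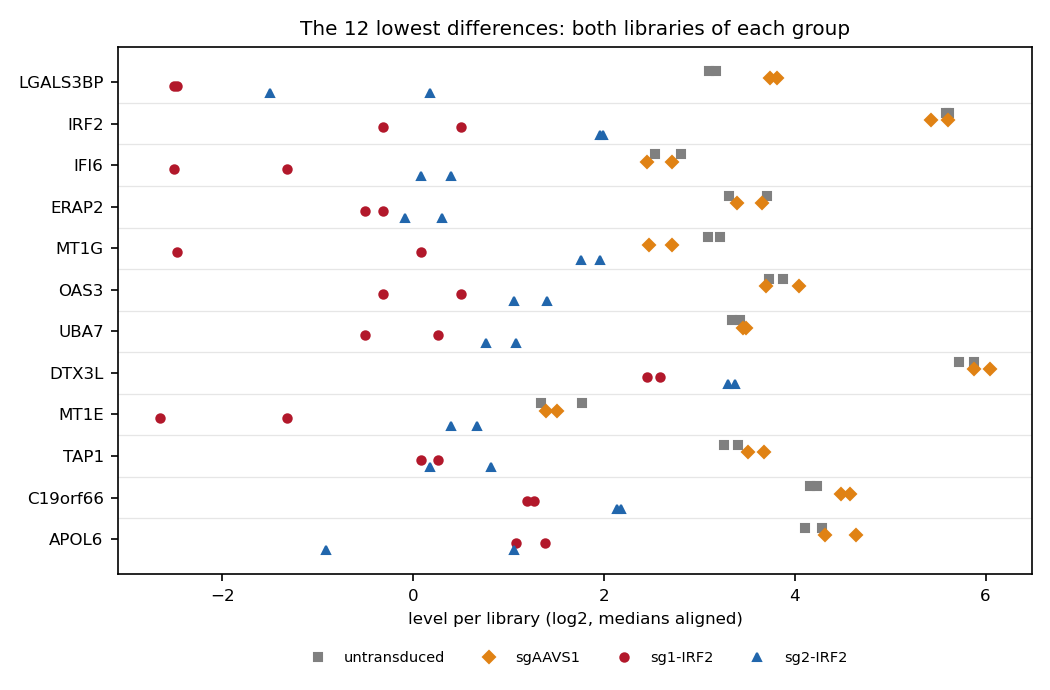
Log2 level in each library (x axis, medians aligned) for the 12 genes with the lowest differences, 2 points a group. The sg1-IRF2 points (circles) lie left of the untransduced and sgAAVS1 points in every gene, and the sg2-IRF2 points (triangles) lie between in most.

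Of the 11 tested genes that supply peptides to MHC class I 7 were lower, none was higher, and the list median was -0.56. Over all genes tested 0.559% were lower, the share to set beside this list and those below. The lists were chosen with earlier results of these data known. TAP1 and TAP2, the subunits of the peptide transporter, differed by -3.42 ± 0.29 and -2.39 ± 0.10 on the log2 scale. TAP2 had 279 and 259 reads in the untransduced libraries, 294 and 376 in the sgAAVS1 libraries, 58 and 72 in the sg1-IRF2 libraries and 101 and 82 in the sg2-IRF2 libraries. The control libraries stood well above the guide libraries, with sg1-IRF2 lowest. Of the peptide-trimming proteases, ERAP2 fell by 3.94 ± 0.31, from 48 and 75 reads with sgAAVS1 to 4 and 4. ERAP1, which lies opposite CAST, differed by -1.502 ± 0.070. PSME1, a subunit of the proteasome activator PA28, fell by 1.22 ± 0.10, and TAPBP (tapasin, which holds HLA at TAP) fell by 0.41 ± 0.04. Adjusted p for these 6 genes ranged from 7.04e-06 down to 3.61e-12. The partner PSME2 (-0.20) and the general chaperones CALR, CANX and PDIA3 (-0.01 to -0.04) were not called.

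Immunoproteasome subunits were thinly covered. PSMB10 had 119 and 140 reads with sgAAVS1 and 74 and 108 with sg1-IRF2 (log2 difference -0.56, adjusted p = 0.0421). This call ended when either untransduced library, either sg2-IRF2 library, sgAAVS1 replicate 1 or sg1-IRF2 replicate 1 was left out (adjusted p 0.0639 to 0.822). PSMB8 and PSMB9 fell under the filter on the mean log2 over the 8 libraries and were not tested. PSMB8 had 23 reads over the untransduced pair, 17 with sgAAVS1 and 0 with either guide to IRF2. Against a floor of 3 reads over a pair, the sg1-IRF2 pair was 5.74-fold lower, leaving out the counting error of the 17 reads. PSMB9 had 6 reads with sgAAVS1 and 0 with sg1-IRF2 (2.03-fold lower against the same floor).

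Among the MHC class I molecules 1 of 5 tested members was called. HLA-C fell by 2.69 ± 0.54, with 25 and 22 reads in the untransduced libraries, 11 and 29 in the sgAAVS1 libraries, 4 and 2 in the sg1-IRF2 libraries and 3 and 7 in the sg2-IRF2 libraries. Its call ended when either untransduced library, sgAAVS1 replicate 2 or sg1-IRF2 replicate 2 was left out (adjusted p 0.0578 to 0.218). HLA genes are near-identical and the listed span of HLA-C takes in HLA-B, so reads may have been split between them. HLA-B, below the level for testing, had 20 reads over the sgAAVS1 pair and 0 with sg1-IRF2, against 26 in untransduced cells and 6 with sg2-IRF2. With sg1-IRF2 it was 6.75-fold lower than with sgAAVS1 against a floor of 3 reads over a pair. NLRC5, the activator of class I genes, was near the floor, with 2 reads over the sg1-IRF2 pair. The light chain B2M (0.03) and HLA-E (-0.14) were not called.

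Of 25 tested classical interferon-stimulated genes 8 were lower (0.559% of all genes tested were) and none was higher, with a median of -0.47 over the list. OAS3, a sensor of double-stranded RNA, had 81 and 74 reads in the untransduced libraries, 59 and 98 in the sgAAVS1 libraries, 4 and 8 in the sg1-IRF2 libraries and 15 and 11 in the sg2-IRF2 libraries (difference -3.78 ± 0.28). SAMD9, a growth-restricting antiviral factor, fell by 3.01 ± 0.25 and HELZ2, a large helicase, fell by 0.56 ± 0.05. LGALS3BP and IFI6, described above, belong to this list. The remaining called members, IFIT3, NMI and PHF11, lay between -1.57 and -0.47. Other members of the same list were near 0, such as IFITM1 (0.04), BST2 (0.01) and PLSCR1 (0.0018).

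The enzymes that attach ISG15 to proteins fell while ISG15 did not pass the test. UBA7, the activating enzyme, had 56 and 60 reads in the untransduced libraries, 50 and 67 in the sgAAVS1 libraries, 6 and 4 in the sg1-IRF2 libraries and 12 and 9 in the sg2-IRF2 libraries (-3.59 ± 0.30). UBE2L6, the conjugating enzyme, fell by 2.79 ± 0.15. ISG15 had 56 and 78 reads with sgAAVS1 and 50 and 47 with sg1-IRF2 (difference -0.48, adjusted p = 0.51). These were the 3 tested members of a list of 7.

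PARP9, DTX3L, PARP12 and PARP14 were the called members among 11 tested genes of the PARP and DTX3L family. DTX3L, a ubiquitin ligase that works in a complex with PARP9, had 326 and 295 reads in the untransduced libraries, 268 and 395 in the sgAAVS1 libraries, 30 and 31 in the sg1-IRF2 libraries and 56 and 55 in the sg2-IRF2 libraries. The sg1-IRF2 libraries were lowest, at a difference of -3.44 ± 0.11 (adjusted p = 2.51e-13), and sg2-IRF2 lay between. PARP9 fell by 2.30 ± 0.17. DTX3L and PARP9 are neighbours on opposite strands. PARP12 and PARP14, mono-ADP-ribosyl transferases, differed by -1.52 ± 0.07 and -1.14 ± 0.08. The family median was -0.14, so most members moved little.

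Sensors and effectors against viral RNA fell in part. Of 11 tested genes for double-stranded RNA and nucleic acid sensing 4 were lower (0.559% of all genes tested were), with a median of -0.29. EIF2AK2 (PKR, a kinase that stops translation on double-stranded RNA) had 1123 and 1104 reads in the untransduced libraries, 918 and 1273 in the sgAAVS1 libraries, 493 and 643 in the sg1-IRF2 libraries and 594 and 582 in the sg2-IRF2 libraries (-0.97 ± 0.06, adjusted p = 1.47e-09). The difference between the guides was -0.02 ± 0.06. DHX58 (LGP2, a helicase of the RIG-I family) fell by 2.65 ± 0.37. Of 14 tested restriction factors 5 were lower, against the same 0.559%, with a median of -0.10. C19orf66 (an inhibitor of ribosomal frameshifting, opposite ANGPTL6) had 109 and 133 reads with sgAAVS1 and 12 and 13 with sg1-IRF2 (-3.30 ± 0.18). APOBEC3G, a cytidine deaminase that edits retroviral DNA, had a difference of -0.78, and its call ended without sg1-IRF2 replicate 2 (adjusted p = 0.106).

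Smaller families contributed further called genes. In the apolipoprotein L family APOL6 and APOL1 differed by -3.25 ± 0.39 and -1.68 ± 0.12, of 4 tested. APOL6 had 91 and 149 sgAAVS1 reads, 13 and 12 sg1-IRF2 reads and 3 and 11 sg2-IRF2 reads. Of 5 tested butyrophilins BTN3A2 and BTN3A1, surface proteins involved in sensing by gamma-delta T cells, differed by -1.72 ± 0.15 and -1.48 ± 0.13. Of 10 tested antiviral TRIM ligases 3 were lower. TRIM34 fell by 2.15 ± 0.23, although it shares exons with the readthrough gene TRIM6-TRIM34. TRIM56 differed by -0.30 ± 0.05 (adjusted p = 0.00181), a call that ended without the mean-variance trend (0.0731) and with pairs below counting noise counted as 1 library (0.517). TRIM22 differed by -1.36 (adjusted p = 0.0447), a call that ended without any 1 of the 8 libraries other than sgAAVS1 replicate 1 (0.0705 to 0.281). GSDMD, the pore-forming protein of pyroptosis and a known IRF2 target, had 55 and 68 reads in the untransduced libraries, 46 and 60 in the sgAAVS1 libraries, 30 and 24 in the sg1-IRF2 libraries and 31 and 44 in the sg2-IRF2 libraries. Its difference was -0.999 (adjusted p = 0.038), and the call ended without either untransduced library or sg1-IRF2 replicate 2 (0.0858 to 0.474). It was the called member among 12 tested genes of pyroptosis and caspases. CASP1 had 0 reads in every group and CASP4 at most 7 over a pair.

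The regulators themselves were not called. None of the 8 other interferon regulatory factors tested and none of the 18 genes of interferon receptors and JAK-STAT signalling passed, with medians of 0.05 and 0.02. IRF1 differed by -0.04, IRF9 by 0.15 and STAT2 by 0.13. SOCS1, a feedback inhibitor of JAK kinases, differed by 0.39 (adjusted p = 0.0843). SP100, a PML body protein, was called higher at 0.28 (adjusted p = 0.0384), and this call ended without either sg1-IRF2 library or either sg2-IRF2 library (0.0874 to 0.562).

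**Figure D3:**
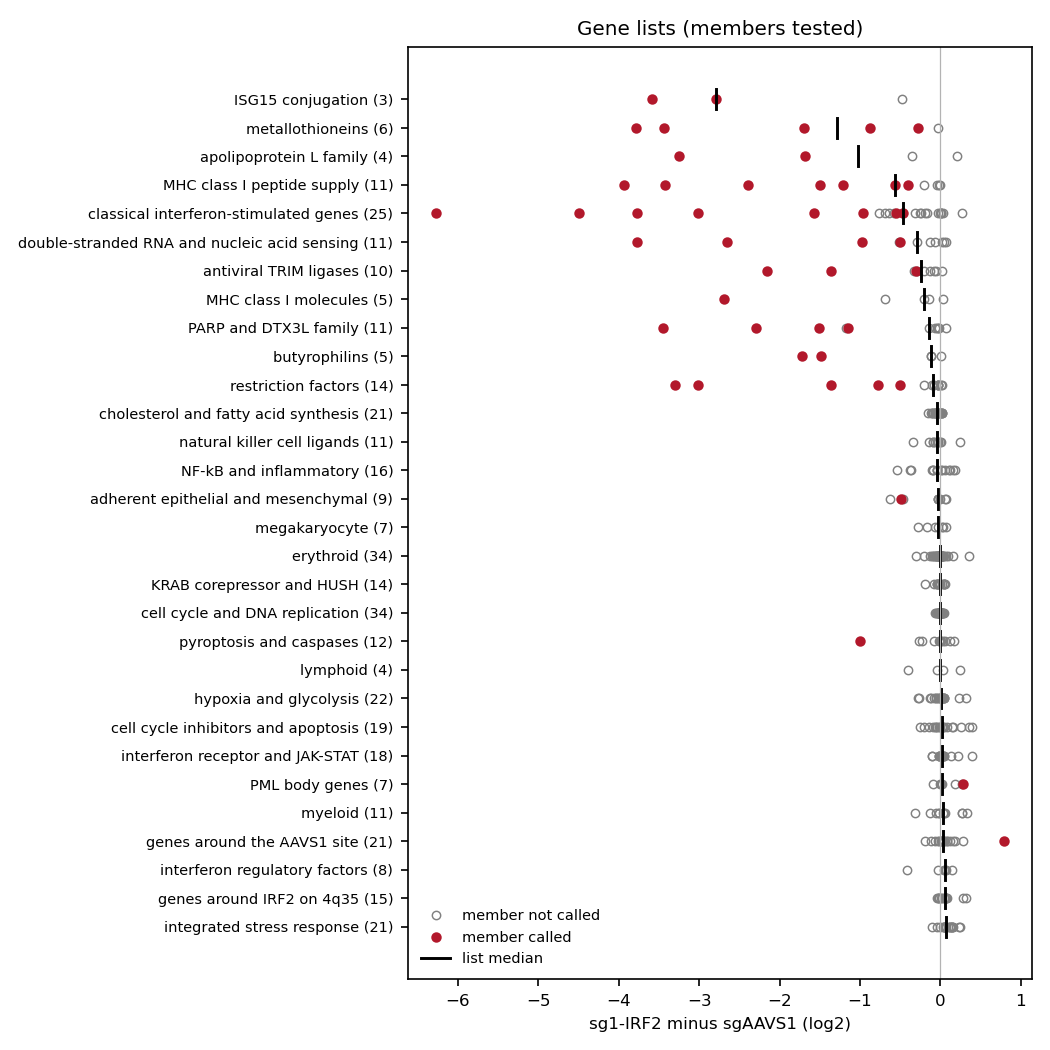
Log2 difference between sg1-IRF2 and sgAAVS1 (x axis) of each tested member of 30 gene lists (number tested in brackets), with called members filled and a bar at each list's median. Called members lie almost all to the left, in the interferon, antigen presentation and metallothionein lists, while the lists for cell identity, cell cycle and metabolism cluster at 0.

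Cell identity and growth genes showed little difference. None of 34 tested erythroid genes was called (median -0.01). GATA1 differed by -0.01 and KLF1 by -0.03. HBG1, HBG2 and HBE1, the fetal and embryonic globins of K562, differed by -0.02, -0.05 and -0.04. Reads of HBG2 (798 to 861) and HBE1 (483 to 545), like those of HBG1, varied less than the library totals. Whether reads of these globins could show a change was not tested, so their differences say little about their level. None of 34 cell cycle and replication genes was called (median -0.0063), with MKI67 at -0.01. CDKN1A (p21, an inhibitor of the cell cycle) had 320 and 318 reads in the untransduced libraries, 204 and 274 in the sgAAVS1 libraries, 192 and 213 in the sg1-IRF2 libraries and 213 and 204 in the sg2-IRF2 libraries. Its difference from sgAAVS1 did not pass (-0.25, adjusted p = 0.181). Lists for NF-kB and inflammation (16 tested), natural killer cell ligands (11), cell cycle inhibitors and apoptosis (19), integrated stress response (21), cholesterol synthesis (21), hypoxia and glycolysis (22), KRAB corepressors (14), and megakaryocyte (7), myeloid (11) and lymphoid (4) genes gave no call. Over all 15 lists without a call, 27 of 255 tested members had an unadjusted p under 0.05 in limma, and voom on the recovered reads called 1, VEGFA (a hypoxia-induced growth factor, named after its value was seen). Such a p was found for 945 of the 14665 genes tested. Of the 27 members, 7 were among the 21 of the integrated stress response, the most in these lists. In that list 3 of the 21 members lay below 0 and the median was 0.07. In the list for adherent epithelial and mesenchymal cells 1 of 9 tested, COL1A1, was called (-0.49), a call that ended without sg1-IRF2 replicate 1 (adjusted p = 0.113). The summed level of that list, in CPM (counts scaled to library totals), was 847.7 to 938.6 with sgAAVS1 and 857.7 to 898.6 with sg1-IRF2.

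Lists of metabolism and stress gave calls against the other control. Against untransduced cells, 431 genes were lower (2.94%) and 352 higher (2.4%) with sg1-IRF2. There, 8 of 22 genes of hypoxia and glycolysis were lower, and of 21 of the integrated stress response 9 were higher and 2 lower, lists with no call against sgAAVS1. The sgAAVS1 libraries themselves differed from untransduced cells by 346 genes lower (2.36%) and 302 higher (2.06%). Among these were 6 genes of hypoxia and glycolysis, all lower, and of the integrated stress response 3 higher and 2 lower. Both comparisons share the untransduced libraries. The guides to IRF2 differed here. With sg2-IRF2 against untransduced cells 0 hypoxia and glycolysis genes were called, and of the stress response 0 were higher and 1 lower. Directly, sg1-IRF2 was lower than sg2-IRF2 in 11 of the 22 hypoxia and glycolysis genes (0.989% of all genes tested). It was higher in 8 of the 21 stress response genes (0.586% of all genes tested). Without aligning the medians the splits against untransduced cells were 302 lower and 1044 higher for sg1-IRF2 and 262 lower and 435 higher for sgAAVS1. Leaving out a library moved the totals of 783 and 648 to between 212 and 1562 and between 127 and 1335, by more than 1.5-fold for each untransduced and sgAAVS1 library in both and, in the first, for each sg1-IRF2 library.

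Of 6 tested members of the metallothionein list 5 were lower (0.559% of all genes tested were), with a list median of -1.28. Metallothioneins are small cysteine-rich proteins that bind zinc and copper and respond to metal through MTF1. MT1X had 158 and 154 reads in the untransduced libraries, 84 and 123 in the sgAAVS1 libraries, 27 and 38 in the sg1-IRF2 libraries and 123 and 108 in the sg2-IRF2 libraries. Here the sg2-IRF2 libraries sat with sgAAVS1 and below untransduced cells, and only sg1-IRF2 was far lower. MT1X fell by 1.70 ± 0.13 against sgAAVS1 and differed from sg2-IRF2 by -1.80 ± 0.13 (adjusted p = 5.9e-07). MT1G had 30 and 33 sgAAVS1 reads, 0 and 6 sg1-IRF2 reads and 22 and 18 sg2-IRF2 reads (10.6-fold fewer than with sgAAVS1, interval 4.62 to 30.1). MT1E had 12 and 17 sgAAVS1 reads, 2 and 0 sg1-IRF2 reads and 9 and 7 sg2-IRF2 reads. MT2A fell by 0.87 ± 0.10 and SLC30A1, a zinc exporter that MTF1 controls, fell by 0.28 ± 0.05, while MTF1 itself differed by -0.02. All 5 called members were also lower in a direct comparison of sg1-IRF2 with sg2-IRF2. MT1 genes are close copies and reads may be split between them.

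The guides were compared directly and through the comparison of sg2-IRF2 with untransduced cells, which shares no library with that of sg1-IRF2 and sgAAVS1. In the latter 96 genes were lower (0.655%) and 21 higher (0.143%). Of the 82 genes lower with sg1-IRF2, 50 were also lower there, which is 61.0% of the 82 and 52.1% of the 96, and none was called in the opposite direction. The share was 72.5% (29 genes) among the 40 genes at least 2-fold lower. Of the 34 higher genes 5 were also higher, 14.7% of the 34 and 23.8% of the 21. Directly, sg1-IRF2 was lower than sg2-IRF2 in 145 genes (0.989%) and higher in 86 (0.586%). Without aligning the medians the splits were 181 lower and 13 higher for sg2-IRF2 against untransduced cells, and 93 lower and 1859 higher between the guides, where the median of all genes shifted by 0.11. Across left-out libraries the totals ran from 41 to 325 and from 36 to 703, moving by more than 1.5-fold for every library except, in the first, either sg1-IRF2 library.

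**Figure D4:**
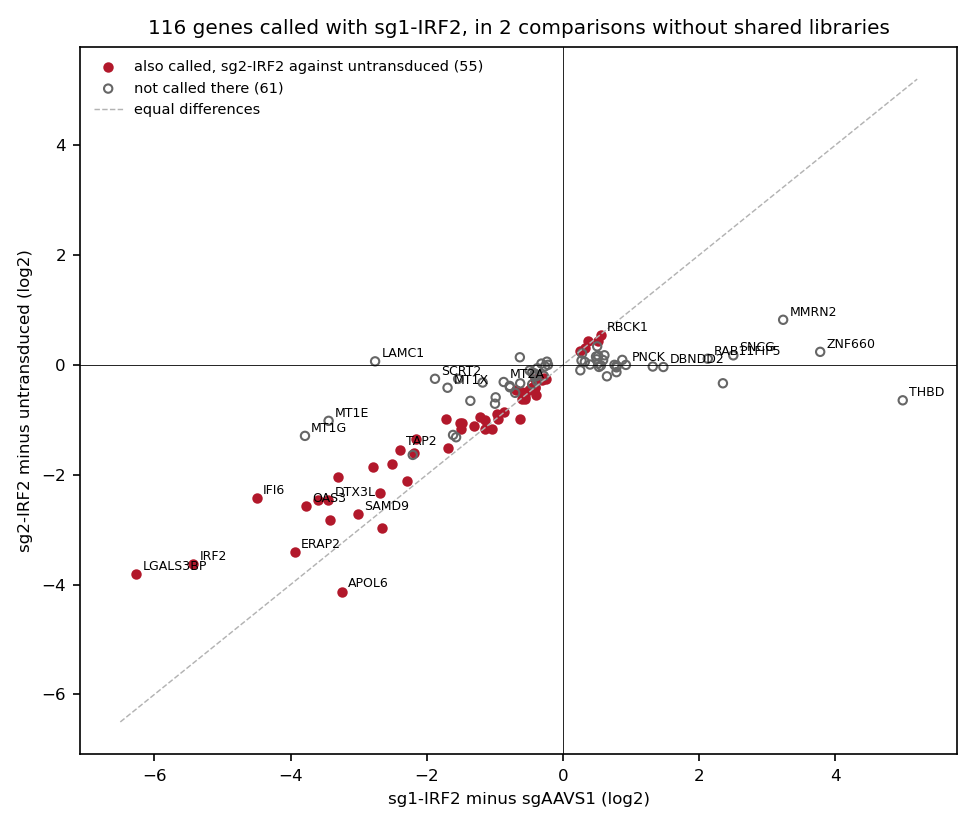
Log2 differences of the 116 called genes between sg1-IRF2 and sgAAVS1 (x axis) and between sg2-IRF2 and untransduced cells (y axis), with the 55 genes called in both filled. Most interferon-related genes lie near or somewhat above the line of equal differences, MT1G, MT1E and LAMC1 lie further above it, and the genes highest on the x axis lie between -0.65 and 0.82 on the y axis.

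Several called genes stood in no list and were chosen for mention after their values were seen. FAM111A, a protease that restricts viral replication, had 390 and 371 reads in the untransduced libraries, 354 and 498 in the sgAAVS1 libraries, 85 and 105 in the sg1-IRF2 libraries and 126 and 121 in the sg2-IRF2 libraries (-2.18 ± 0.08, adjusted p = 1.2e-12). Cytokine and receptor genes among them were FLT3LG, the ligand of FLT3 (-2.51), IL15RA, the chain that presents interleukin 15 (-1.04), and IL17RC, an interleukin 17 receptor subunit (-1.14). LAMC1, a laminin chain, had 8 and 11 sgAAVS1 reads, 2 and 1 sg1-IRF2 reads and 17 and 11 sg2-IRF2 reads, and differed between the guides (-3.23, adjusted p = 0.00237). Zinc finger genes named ZNF made up 9 of the 82 lower genes, 7 of them on chromosome 19, with differences of -0.70 to -0.38. That is 2.02% of the 445 tested, against 0.559% of all genes tested. Of the 9, 5 were also lower with sg2-IRF2 against untransduced cells, as were 50 of all 82. A further 5 of the 445 were among the 34 higher genes, which made up 0.232% of all genes tested.

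The promoters of the called genes were searched for GAAANNGAAA (TTTCNNTTTC on the other strand), the letters of an interferon-stimulated response element, in RefSeq promoters of GRCh38.p14 from 250 bases before to 50 after the start. The following 5 are shown because they belong to the genes with the lowest adjusted p that hold the motif. Each is printed 5′ to 3′ on the strand of the gene, with the motif in capitals.
DTX3L, chr3:122564088-122564387, plus strand: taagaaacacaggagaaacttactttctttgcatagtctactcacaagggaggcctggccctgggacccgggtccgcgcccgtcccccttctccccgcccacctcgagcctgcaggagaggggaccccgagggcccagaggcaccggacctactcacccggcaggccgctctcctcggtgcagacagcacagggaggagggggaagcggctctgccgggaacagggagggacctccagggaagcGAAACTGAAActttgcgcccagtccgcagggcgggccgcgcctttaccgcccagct
FAM111A, chr11:59142606-59142905, plus strand: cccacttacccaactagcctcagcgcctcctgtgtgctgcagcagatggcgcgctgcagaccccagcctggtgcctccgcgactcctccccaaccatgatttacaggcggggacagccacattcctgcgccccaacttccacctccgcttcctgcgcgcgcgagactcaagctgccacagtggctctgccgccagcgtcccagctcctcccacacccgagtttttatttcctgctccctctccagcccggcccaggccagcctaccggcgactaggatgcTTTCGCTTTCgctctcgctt
TAP2, chr6:32838690-32838989, minus strand: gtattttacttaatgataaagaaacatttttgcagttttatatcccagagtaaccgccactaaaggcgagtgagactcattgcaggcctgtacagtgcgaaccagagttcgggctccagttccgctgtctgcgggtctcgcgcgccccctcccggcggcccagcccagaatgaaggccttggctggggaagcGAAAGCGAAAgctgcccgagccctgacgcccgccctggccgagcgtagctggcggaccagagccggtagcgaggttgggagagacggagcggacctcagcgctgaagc
ERAP1, chr5:96807896-96808195, minus strand: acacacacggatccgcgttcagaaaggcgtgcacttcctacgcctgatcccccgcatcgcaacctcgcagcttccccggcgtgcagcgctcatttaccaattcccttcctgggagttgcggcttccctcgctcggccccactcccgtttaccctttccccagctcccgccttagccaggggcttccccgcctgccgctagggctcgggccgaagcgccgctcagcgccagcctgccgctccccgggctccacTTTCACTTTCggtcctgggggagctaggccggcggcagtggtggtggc
PARP12, chr7:140062902-140063201, minus strand: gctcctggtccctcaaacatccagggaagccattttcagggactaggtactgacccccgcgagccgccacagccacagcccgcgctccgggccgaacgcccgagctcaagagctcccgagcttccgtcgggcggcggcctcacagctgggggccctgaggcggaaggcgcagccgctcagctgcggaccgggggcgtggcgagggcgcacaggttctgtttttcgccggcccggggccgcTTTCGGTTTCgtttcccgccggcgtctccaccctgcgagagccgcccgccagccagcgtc
The motif began 6 bases before the start in DTX3L, 10 before in PARP12 and 58 before in TAP2, and after it in ERAP1 and FAM111A. A match describes letters and shows no binding.

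The motif was in 23 of the 60 promoters found for lower genes (38.3%), against 283 of 10621 for all genes tested (2.67%). Among genes at least 2-fold lower it was in 17 of 29 (58.6%), among those lower by less in 6 of 31 (19.4%), among higher genes in 2 of 27 (7.41%) and among genes not called in 258 of 10534 (2.45%). Most genes with the motif therefore showed no call: of the 283, 8.13% were lower. A looser form, GAAANNGAA, was in 6.29% of all tested promoters and in the same 38.3% for lower genes. Among lower genes the motif matched at 3 positions in IFI6 and C5orf56 and at 2 in OAS3, TAP1, IFIT3 and TAPBP. Matches that overlap and share a GAAA unit were those of TAP1 (starts -134 and -128) and TAPBP (-20 and -14). The same was so for 2 of the 3 matches of C5orf56 (-39 and -33). ISG15, which was not called, holds the motif too.

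In most of the 12 largest rises the sgAAVS1 libraries were the low ones. In 28 of the 34 higher genes (82.4%, against 21.4% of all tested genes) both untransduced libraries lay above both sgAAVS1 libraries, as the sg1-IRF2 libraries did. In 18 of the 34 (52.9%, against 27.2% of all tested genes) both untransduced libraries lay below both sg1-IRF2 libraries. The 34 were called on the same sgAAVS1 and sg1-IRF2 libraries, which can raise both shares. THBD (thrombomodulin, an endothelial anticoagulant receptor) had 36 and 45 reads in the untransduced libraries, 0 and 0 in the sgAAVS1 libraries, 25 and 34 in the sg1-IRF2 libraries and 28 and 23 in the sg2-IRF2 libraries. It was at least 19.4-fold higher with sg1-IRF2 than with sgAAVS1, and untransduced cells were at least 25.6-fold higher than sgAAVS1. RAB11FIP5, an adaptor of recycling endosomes, had 396 and 437 reads in the untransduced libraries, 70 and 105 in the sgAAVS1 libraries, 382 and 382 in the sg1-IRF2 libraries and 483 and 407 in the sg2-IRF2 libraries. The sgAAVS1 libraries were the low ones in both genes, and the other 6 lay close together.

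**Figure D5:**
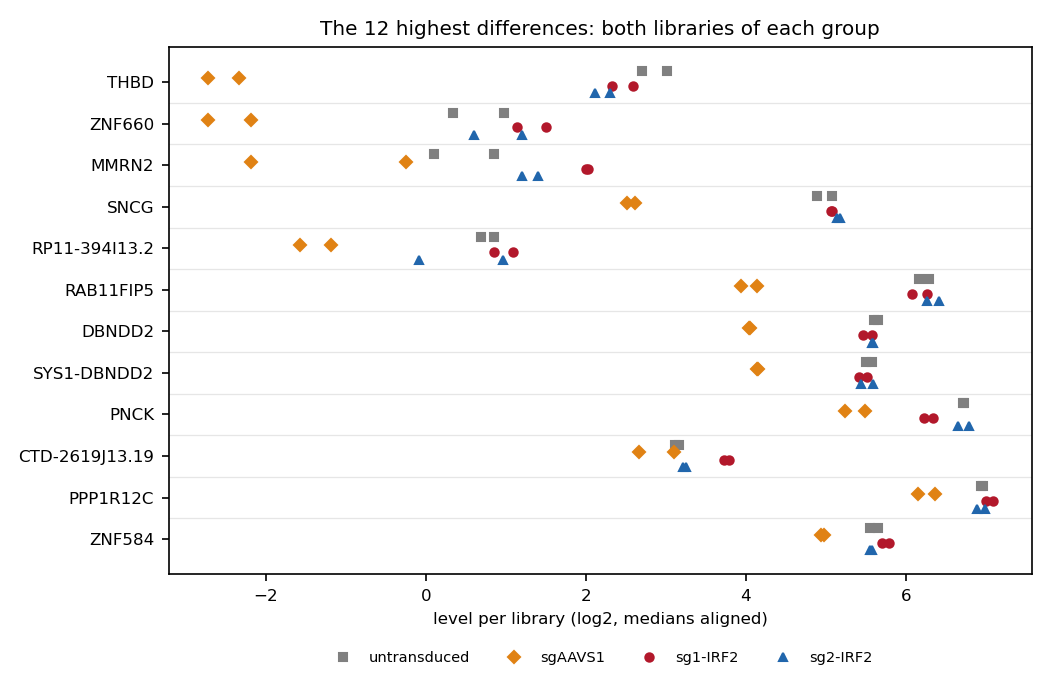
Log2 level in each library (x axis, medians aligned) for the 12 genes with the highest differences, 2 points a group. The sgAAVS1 points (diamonds) lie left of both sg1-IRF2 points in every gene and left of all other groups in most, while untransduced, sg1-IRF2 and sg2-IRF2 points lie close together in most.

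The same order held for SNCG (gamma-synuclein), which had 164 and 188 reads in the untransduced libraries, 28 and 34 in the sgAAVS1 libraries, 168 and 189 in the sg1-IRF2 libraries and 205 and 186 in the sg2-IRF2 libraries. Its difference from sgAAVS1 was 2.50 ± 0.11, and from untransduced cells 0.08. MMRN2 is an endothelial matrix protein whose span takes in SNCG on the other strand. It had 10 and 6 reads in the untransduced libraries, 1 and 5 with sgAAVS1 and 20 and 23 with sg1-IRF2. Scaled reads with sg1-IRF2 were 7.07-fold more than with sgAAVS1 (interval 2.998 to 20.3). ZNF660 had 1 and 0 reads with sgAAVS1 and 11 and 16 with sg1-IRF2 (26.6-fold more, interval 4.39 to 1091). DBNDD2 and SYS1-DBNDD2, which share exons, differed by 1.47 ± 0.08 and 1.32 ± 0.08, and ZNF584 by 0.79 ± 0.07. PNCK, a calmodulin-dependent kinase, differed by 0.92 ± 0.07 from sgAAVS1 and by -0.44 from untransduced cells. The lncRNA RP11-394I13.2 differed by 2.35 (adjusted p = 0.0421), and its call ended without either untransduced or either sg1-IRF2 library, sgAAVS1 replicate 2 or sg2-IRF2 replicate 1 (0.0593 to 0.359). CTD-2619J13.19 differed by 0.87 from sgAAVS1 and by 0.61 from untransduced cells, while sgAAVS1 did not pass against untransduced cells (-0.26, adjusted p = 0.476). Its call against sgAAVS1 ended without sgAAVS1 replicate 1 or either sg1-IRF2 library (0.124 to 0.187).

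PPP1R12C, a myosin phosphatase subunit and the gene that holds the AAVS1 site, had 679 and 699 reads in the untransduced libraries, 375 and 424 in the sgAAVS1 libraries, 678 and 726 in the sg1-IRF2 libraries and 672 and 671 in the sg2-IRF2 libraries. It was higher with sg1-IRF2 than with sgAAVS1 by 0.79 ± 0.06 (adjusted p = 9.18e-08), and lower with sgAAVS1 than in untransduced cells by a difference of -0.70. It was the called member among 21 tested genes around the AAVS1 site.

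The 5 genes higher both with sg1-IRF2 against sgAAVS1 and with sg2-IRF2 against untransduced cells, named after their values were seen, were RBCK1, FAM208B, ZNF850, CXorf38 and ADAMTS6. RBCK1 (HOIL-1, a subunit of the linear ubiquitin ligase) had 472 and 483 reads in the untransduced libraries, 412 and 535 in the sgAAVS1 libraries, 690 and 715 in the sg1-IRF2 libraries and 720 and 656 in the sg2-IRF2 libraries. All 4 libraries with a guide to IRF2 lay above the 4 controls, by a difference of 0.55 ± 0.05 against sgAAVS1 (adjusted p = 1.72e-06). FAM208B (TASOR2, related to a subunit of the HUSH complex) had 1352 and 1352 reads in the untransduced libraries, 1162 and 1618 in the sgAAVS1 libraries, 1704 and 1927 in the sg1-IRF2 libraries and 1847 and 1750 in the sg2-IRF2 libraries, a difference of 0.37 ± 0.04. RBCK1 and FAM208B were the higher genes whose promoters hold the motif. Genes called lower were chosen on the same sg1-IRF2 libraries, which can raise the share that follows. In 81 of these 82 both untransduced libraries lay above both sg1-IRF2 libraries (98.8%, against 23.3% of all tested genes). The other was HCG18, an antisense RNA named after its values were seen, which was high with sgAAVS1 (605 and 840 reads against 595 and 580 in untransduced cells and 574 and 665 with sg1-IRF2).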

How the data were processed

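RNA was measured by rRNA-depleted, strand-specific sequencing of 8 libraries. Per the labels' protocols, RNA was taken with a column kit and DNase-treated, and the tools cutadapt and Bowtie2 with the build hg38 come from the submitters' processing notes. How reads were counted, with which annotation and versions, is not given in any source used here. Values were deposited on a log2 scale, as gene reads over 1 scaling factor a library: every value above the column minimum is a whole multiple of 1 read (tolerance 0.01 read, 100% of values), and 0 reads are listed at 0.9 read. Whole reads were recovered for depth (5248359 to 6738348 per library) and counting intervals, which cover counting error only, since copies of 1 molecule cannot be told from separate molecules.

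The tests used the log2 values with medians aligned, in a limma 3.58.1 fit (R 4.3.3) of 4 group means to all 8 libraries with a mean-variance trend, 4 residual and 14.91 prior degrees of freedom, two-sided, with Benjamini-Hochberg adjustment over 14665 genes. The fit was tested on simulated data. Of the tested genes 97.64% matched GENCODE 29. Ratios against 0 reads use a floor of 3 reads over a group and leave out the counting error of the other group. Python 3.11.15 with pandas 2.3.3, scipy 1.17.1 and matplotlib 3.10.9 did the rest. Replicates below counting noise were kept as 2 libraries, with an alternative that counts them as 1.

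Genes were named by rule: IRF2, the 12 lowest and 12 highest called differences with libraries that do not overlap and at least 20 reads in the higher group, up to 4 called members of each list by p, and a set of named genes whatever their value. The comparison, the lists and this rule were chosen with earlier results of these data known. Alternatives were other scalings, filters, pseudocounts, fits and left-out libraries. Some genes that the rule names are not reported here.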

Additional observations from a re-analysis of the deposited data

Results flagged for a closer look

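For 14 of the 68 named genes the effect differed between the guides to IRF2, by limma's test of sg1-IRF2 against sg2-IRF2. Over all genes tested 0.989% were lower and 0.586% higher with sg1-IRF2. Many named genes were picked by their values in the sg1-IRF2 libraries, so these shares cannot be compared directly. IRF2 itself was lower with sg1-IRF2 (log2 difference -1.88, adjusted p = 0.000104). The metallothioneins MT1G (-3.06, adjusted p = 0.00302), MT1E (-2.52, 0.0167), MT1X (-1.80, 5.9e-07) and MT2A (-0.86, 0.000174) were lower with sg1-IRF2 too. Interferon-related genes that also fell with sg2-IRF2 but further with sg1-IRF2 were IFI6 (-2.15, adjusted p = 0.015), OAS3 (-1.14, 0.0475), C19orf66 (-0.93, 0.00891), UBE2L6 (-0.85, 0.00627), DTX3L (-0.82, 0.000535), TAP2 (-0.45, 0.0238) and PARP12 (-0.32, 0.0365). Other interferon-related genes were not called between the guides, such as SAMD9 and EIF2AK2 (both -0.02), TAP1 (-0.33) and APOL6 (1.16). PNCK (-0.44, adjusted p = 0.00367) and COL1A1 (-0.38, 0.0302) completed the 14 and were lower with sg1-IRF2. The part that the depth of knockdown or the guides themselves have in these differences was not tested.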

How the results depend on the processing

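Of the 51 named genes that were called, 35 stayed called under every alternative that gave them a value and none reversed. At a mean log2 of 2 or more 14 of the 51, 7 of them among the 35, had no value. Without the mean-variance trend 16 lost their call, among them APOL6, DHX58, MMRN2, MT1E and MT1G (adjusted p 0.228, 0.205, 0.244, 0.0714 and 0.272). Between sg1-IRF2 and sgAAVS1 the 116 calls became 314 with no filter on low values, 49 without the trend and 79 to 211 with 1 library left out. With 2 alternatives added after seeing the data they became 248 (only the compared groups, with a replicate block) and 73 (pairs below counting noise as 1 library). With a 2-fold minimum, 48 became 161 without the filter and 28 at a mean log2 of 2 or more. For sg1-IRF2 against untransduced cells, 783 became 1346 with medians not aligned, 1229 with no filter, 68 without the trend, 1558 with only the compared groups, 76 with pairs as 1 library and 212 to 1562 with 1 library left out. For sgAAVS1 against untransduced cells, 648 became 1105, 10, 299 and 60 (no filter, no trend, compared groups, pairs as 1), 420 with compared groups and block, and 127 to 1335 with 1 left out. Between the guides, 231 became 1952 with medians not aligned, then 577, 4, 689 and 14 in the same order, 538 with the block, and 36 to 703. For sg2-IRF2 against untransduced cells, 117 became 194 with medians not aligned, then 367, 26, 399 and 36, 514 with the block, and 41 to 325. The causes were not tested.

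Replicate numbers link only 2 libraries a group, and deviations of the first replicates correlated at 0.22 for sgAAVS1 and sg1-IRF2. With the replicate block in the fit of all 8 libraries the counts were 119, 827, 671, 262 and 133, in the order above. HLA-B, PSMB8 and PSMB9 were not tested because their mean log2 over the 8 libraries was under 0 (-0.37, -0.876 and -1.912). That mean takes in the sg1-IRF2 pair, where each had 0 reads.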
